A study of Mus musculus with 27 samples.

Results

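The genes that encode subunits of the oxidative phosphorylation machinery were measured in mouse osteosarcomas and in the metastases that these tumours gave. Members were all genes whose symbol in the platform annotation marks a subunit of NADH dehydrogenase (Nduf genes of the a, b, c, s and v series), succinate dehydrogenase (Sdha to Sdhd), the cytochrome bc1 complex (Uqcr genes), cytochrome c oxidase (Cox4 to Cox8 genes) or ATP synthase (Atp5 genes). This gave 78 of the 19057 genes named on the array, with 34 in complex I, 4 in complex II, 7 in complex III, 17 in complex IV and 16 in complex V. The rule reads symbols alone, and it was set with earlier results of these data known. One entry of complex I, Ndufs5-ps, is a pseudogene, and Ndufa4, named after complex I, was counted with complex IV. Cox7a2l, a factor of supercomplex assembly, was counted with complex IV by its symbol.

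Total RNA of 27 tissue samples was hybridised to single-colour Illumina bead arrays, 1 array each. There were 2 liver metastases, 7 lung metastases, 12 primary tumours that gave metastases and 6 localized primary tumours. All came from mice backcrossed to C57BL/6 that carried Col2.3-Cre, a Cre recombinase driven in the osteoblast lineage by a fragment of the rat Col1a1 promoter, together with either floxed p53 or LSL-p53R172H, a Cre-activated point-mutant allele. The labels do not say which p53 allele a given tumour carried, and no age is given in the sources used here. The comparison group for spread is thus a localized tumour of the same kind, not normal bone. Every lung metastasis was compared with the primary of the same specimen, and of the liver metastases CR-147 had its primary and lung metastasis on the arrays while RF-342 had neither. Nothing in the labels says that specimens are separate animals, so p-values measure the spread between specimens.

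Oxidative phosphorylation is the last stage of respiration in mitochondria. Complexes I and II pass electrons from NADH and succinate to ubiquinone, complex III passes them to cytochrome c, complex IV passes them to oxygen, and ATP synthase, called complex V, uses the resulting proton gradient to make ATP. Most subunits are encoded in the nucleus and made in all tissues, but a few subunits of complex IV have isoforms with tissue preference. In mice Cox6a2, Cox7a1 and Cox8b replace Cox6a1, Cox7a2 and Cox8a in heart and skeletal muscle, Cox4i2 replaces Cox4i1 mainly in lung and under low oxygen, and Cox6b2, Cox7b2 and Cox8c are testis forms. Cox7a1 and Cox8b are also known as genes of brown fat.

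Levels are log2 normalized intensities, differences are log2 fold changes, and a gene counted as detected on an array at a detection p under 0.05. A gene was called where its limma p, adjusted by Benjamini-Hochberg over all genes of the comparison, was under 0.05. The share of probes detected on an array ran from 42.6% to 47.5%. Several samples stood apart by marker genes of other cells. Markers of lung epithelium averaged 11.39 to 13.46 in the lung metastases, against 5.27 to 6.26 in the metastatic primaries, and reached 9.16 in the CR-147 liver metastasis. Markers of endothelium averaged 9.08 to 11.99 in the lung metastases, against 7.86 to 9.14 in the metastatic primaries. Markers of hepatocytes averaged 13.26 and 13.39 in the liver metastases, and in the lung the metastases of CR-147, RF-364 and RF-379 also reached 9.70 to 10.48. Markers of osteoblasts and bone matrix averaged 6.72 in the FC-28 lung metastasis and 7.13 to 8.22 in the primaries CR-65, RF-56, CR-45 and FC-28, against at least 11.78 in the remaining samples. The tissue was bulk, so fewer cells of a type and less RNA per cell cannot be told apart.

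Most subunit genes were measured in every sample and varied little. Of the 78 genes, 70 were detected on all 27 arrays. Their median SD over the 27 arrays was 0.34, against 0.50 over the 8126 genes of the array detected everywhere. The SD lay under 0.50 for 61 of the 70 members (87.1%), against 50.1% of all such genes. The members' probes were also brighter, with a median of 12.36 against 9.39, and the part of brightness in the narrower spread was not tested. The exceptions were few. Among the 70, the SD was above 1 for Cox6a2 (2.12), Cox7a1 (1.17) and Atp5k (1.04), the last encoding the e subunit of ATP synthase. Cox8b (SD 2.39), Cox4i2 (SD 1.64) and Cox6b2 (SD 1.17), which were detected on 23, 24 and 19 arrays, varied as widely.

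A probe below background gives no information on the complex it belongs to. The probes of Ndufs1, the large iron-sulphur subunit of complex I, and of Sdha, the flavoprotein of complex II, were not detected on any array, nor were those of the testis forms Cox7b2 and Cox8c. Uqcrfs1, the Rieske iron-sulphur protein of complex III, was detected on 8 arrays at a mean level of 5.11. Cox8a, Atp5g1 and Ndufa4l2 and the subunits encoded by mitochondrial DNA were not analysed here.

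The mean level of each complex overlapped between the groups. For the 33 complex I genes detected on all arrays the mean was 11.65 and 11.90 in the liver metastases, 11.11 to 12.03 (median 11.67) in the lung metastases, 11.42 to 12.09 (median 11.88) in the metastatic primaries and 11.50 to 11.97 (median 11.80) in the localized primaries. Complex II, with 3 such genes, ran from 9.93 to 11.36 in the lung metastases, against 10.26 to 11.51 in the metastatic primaries. Complex III, with 6 genes, ran from 11.89 to 12.88 in the lung metastases, against 12.00 to 12.80 in the metastatic primaries. Complex IV, with 12 genes, ran from 11.25 to 12.07 in the lung metastases, against 11.37 to 12.61 in the metastatic primaries. Complex V, with 16 genes, ran from 11.29 to 12.47 in the lung metastases, against 11.83 to 12.57 in the metastatic primaries. The sample with the lowest mean over all 70 genes was the FC-28 lung metastasis (11.19), whose primary was the lowest of the metastatic primaries (11.51).

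**Figure D1:**
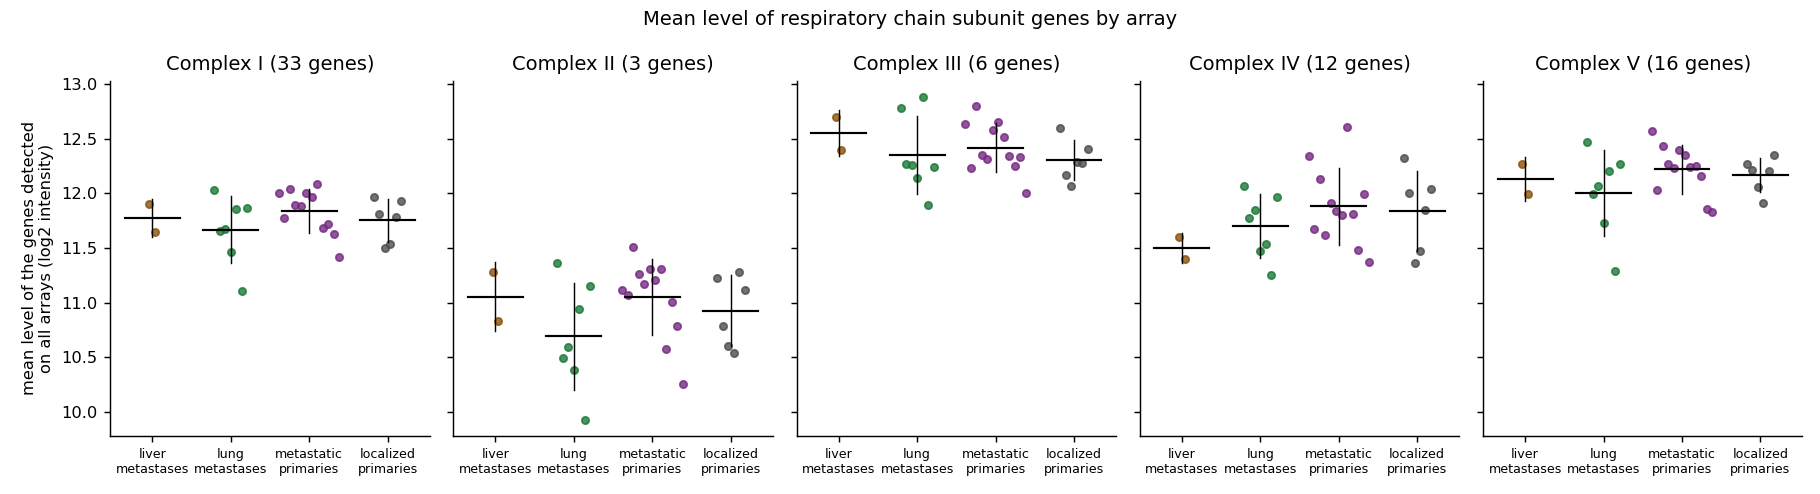
Mean level of the subunit genes detected on all arrays, by complex (vertical axis, log2 intensity). Each point is 1 array, horizontal lines are group means and vertical lines 1 SD. The groups overlap in each complex, and the lowest point of complexes I, II, III, IV and V in the lung metastases is FC-28 (11.11, 9.93, 11.89, 11.25 and 11.29).

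Metastatic and localized primaries were compared to ask whether respiratory chain transcripts differ in tumours that went on to spread. No member passed: 0 of the 73 members tested were called by limma, beside 0.00856% of all 11684 genes (1 gene). At an unadjusted p under 0.05, where 340 of all 11684 genes were higher and 423 lower, 2 members were higher and 0 lower. These were Cox6b2, at 5.92 ± 0.85 (SD, n = 12) in metastatic primaries and 5.10 ± 0.26 (SD, n = 6) in localized primaries (log2 fold change 0.82, SE 0.34, adjusted p = 0.733), and Atp5a1, the catalytic-core alpha subunit of ATP synthase, at 11.45 ± 0.40 and 10.98 ± 0.50 in the same groups (log2 fold change 0.48, SE 0.22, adjusted p = 0.752). The values of both genes overlapped between the groups. Atp5a1 also varied with the raw array background. Where that was 48.0 to 53.9, it stood at 10.43 to 11.10 in the localized primaries CR-93, RF-44, CR-65 and RF-56. It stood at 10.89 and 10.71 in the metastatic primaries RF-104 and FC-28. Where the background was 59.1 to 87.5, it was 11.52 and 11.55 in the localized primaries RF-191 and RF-43, against 11.08 to 11.91 in the metastatic ones. The part of the background was not tested. Cox6b2 was below detection in 5 of the 6 localized primaries.

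The member median was 0.08, against 0.01 over all genes, with 49 members above 0 and 24 below. Over the 31 alternatives the member median ran from -0.19 to 0.13. It was below 0 in 1 of them, the fit within the 6 primaries with the lowest array background (2 metastatic and 4 localized; -0.19), and was 0.02 within the other 12. By complex the medians were 0.08 for I, 0.18 for II, 0.06 for III, 0.10 for IV and 0.01 for V. The precision was enough to bound most members. For 65 of the 73, the 95% interval of the difference lay within 1 log2 unit of 0, a change of 2-fold, while 72.1% of all genes had so narrow an interval. The 8 members that did not were Atp5k, Cox4i2, Cox6a2, Cox6b2, Cox7a1, Cox8b, Ndufb5 and Ndufb9. In complex I the highest fold change was that of the membrane-arm subunit Ndufb5 (0.46, adjusted p = 0.797) and the lowest that of Ndufs6 (-0.20, adjusted p = 0.862). In complex III they were Uqcrc2, a core protein (0.35, adjusted p = 0.768), and the hinge protein Uqcrh (-0.07, adjusted p = 0.942).

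Over 7 specimens, each lung metastasis was set against its primary. A single member was called. Ndufb11, an accessory subunit in the membrane arm of complex I, had levels of 6.88, 7.52, 7.10, 6.31, 6.31, 7.24 and 6.65 in the lung metastases CR-147, CRE-155, FC-279, FC-28, RF-212, RF-364 and RF-379. In the primaries of the same specimens, in the same order, it stood at 7.62, 8.07, 7.82, 6.71, 7.91, 7.68 and 7.57. It was lower in the metastasis of 7 of 7 pairs, by 0.40 in FC-28 up to 1.60 in RF-212. The means were 6.86 ± 0.46 and 7.63 ± 0.44 (SD, n = 7 each), and the log2 difference was -0.77 (SE 0.17, adjusted p = 0.0264 by limma).

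That makes 1 of 73 members called lower and 0 called higher, beside 8.28% of all 11214 genes called in either direction, 2.59% lower and 5.69% higher; a single call gives no sign of a share apart from the background. The Ndufb11 call depended on the analysis. A second Ndufb11 probe, detected on 26 arrays and dimmer (mean 5.77), changed by 0.14. The call was lost without any one of 5 of the 7 pairs, with log2 fold changes of -0.82 to -0.63 and adjusted p values of 0.0506 (without RF-364) to 0.071 (without FC-279). It was also lost without the 3 pairs whose lung metastasis held hepatocyte transcripts (log2 fold change -0.82, adjusted p = 0.16). The raw background signal of the arrays was 43.8 to 50.2 in the lung metastases and 53.9 to 76.8 in their primaries, and with it as a covariate the Ndufb11 difference was 0.08 (adjusted p = 0.957). The ranges did not overlap, so that fit could hardly separate the array background from the tissue.

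The other members lay mostly slightly below 0. The member median was -0.19, against -0.06 over all genes, and 61 members were below 0 and 12 above. By complex the medians were -0.20 for I, -0.44 for II, -0.05 for III, -0.16 for IV and -0.25 for V. At an unadjusted p under 0.05, where 1487 of 11214 genes were lower and 1452 higher, 13 of 73 members were lower and 1 higher. Of these 13, named after their values were seen, Ndufb11, Ndufa10, Ndufb5, Ndufa8, Ndufb10, Ndufv1, Ndufb9 and Ndufb2 belong to complex I, Sdhd to complex II, and Atp5a1, Atp5pb, Atp5md and Atp5h to complex V. Atp5a1 stood at 11.13 ± 0.50 in lung metastases and 11.61 ± 0.43 in their primaries (log2 fold change -0.48, adjusted p = 0.0590). Ndufa10, an accessory subunit of complex I, stood at 12.09 ± 0.36 and 12.52 ± 0.32 in the same groups (log2 fold change -0.43, adjusted p = 0.0640). The array background was lower in every lung metastasis than in its primary, so its part in these differences could hardly be separated from that of the tissue.

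The members lower in 7 of 7 pairs were Atp5a1, Atp5o, Atp5pb, Cox5b, Ndufa10 and Ndufb11, which is 6 of 73 (8.22%), beside 6.63% of all genes. No member was higher in 7 of 7 pairs, beside 7.11% of all genes. The mean over all 70 genes changed by -0.46 in FC-279, -0.32 in FC-28, -0.29 in RF-364, -0.26 in CR-147, -0.18 in RF-212, -0.03 in CRE-155 and 0.04 in RF-379. The mean of the skeletal muscle markers was lower in 7 of 7 lung metastases, with changes of -6.21 to -1.97, among them -2.20 in RF-379 and -5.72 in CRE-155, and in FC-279 the mean of the brown adipocyte markers changed by -4.34. Their part in the change of the members was not tested. Complex II was lower in 6 of the 7 lung metastases, by 0.11 to 0.82, and was higher by 0.24 in CRE-155.

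How far the members stood below 0 followed the scaling of the arrays. When the arrays were scaled to a common median in place of quantile normalization, the median over all genes moved to -0.32 and that of the members to -0.58. Under that scaling 33 members (45.2%) were called lower, beside 18% of all genes. Only 1 member, Cox6b2, was called higher, beside 5.73% of all genes. The members called lower were 15 of 33 in complex I, 3 of 3 in complex II, 2 of 6 in complex III, 4 of 15 in complex IV and 9 of 16 in complex V. The member median relative to that of all genes was thus further below 0 than with quantile normalization, and the calls of single members differed between the scalings.

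**Figure D2:**
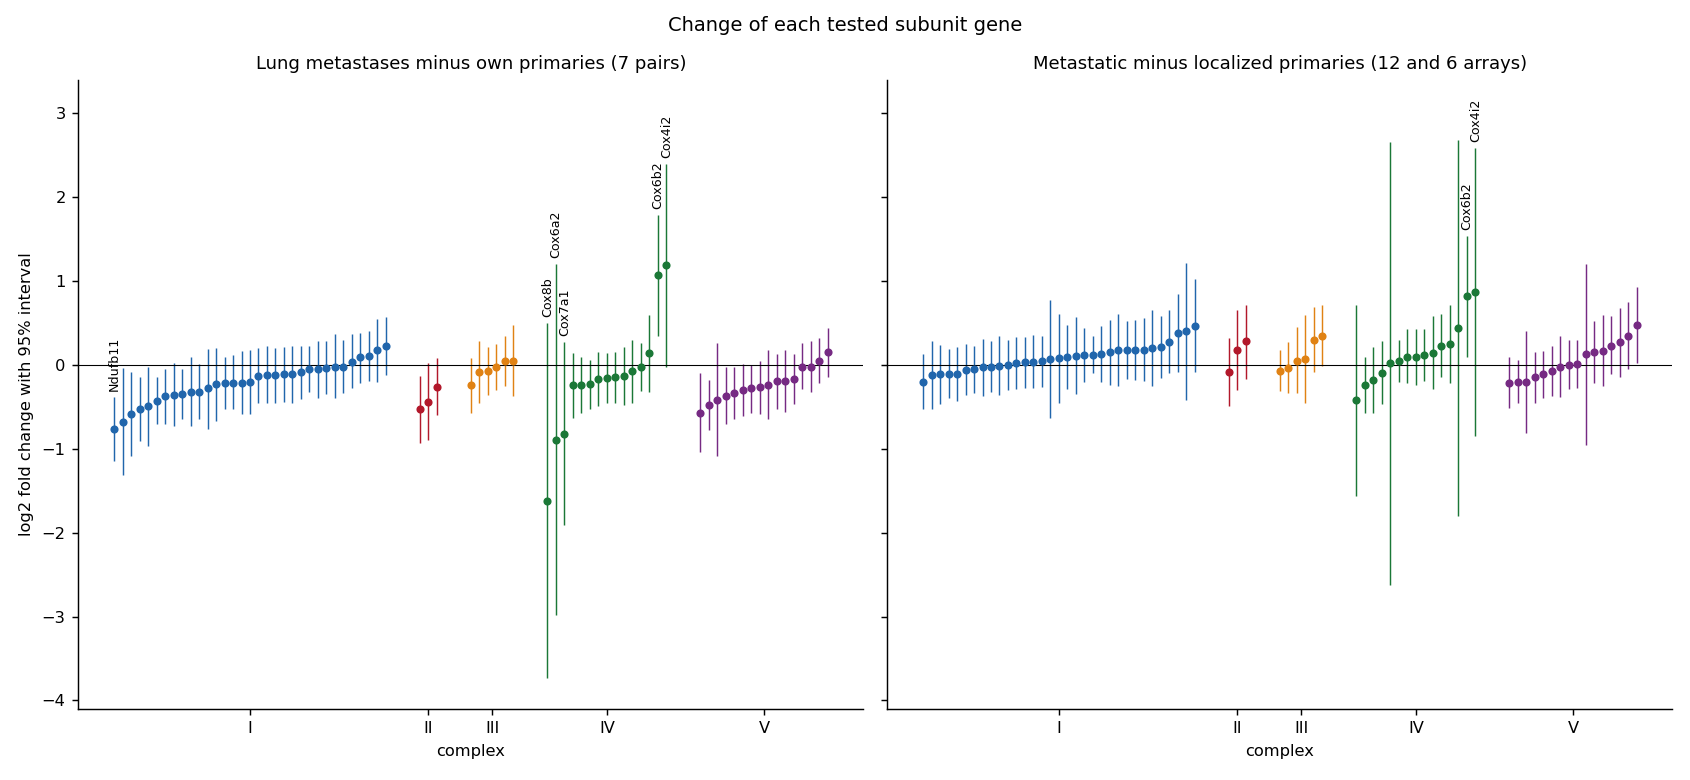
Log2 fold change of each tested member with its 95% interval, by complex and ordered by size within it, for lung metastases minus own primaries (left) and metastatic minus localized primaries (right). Most points lie within 1 log2 unit of 0, and the named points outside 0.75 are Ndufb11 and isoform genes of complex IV.

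The largest differences between single samples were those of the isoform genes of complex IV. The promoters of 2 muscle forms and 2 body forms are shown because their genes differ in how they vary over these samples. Each sequence is the 250 bases before the annotated start, 5′ to 3′ on the strand of the gene, from RefSeq, build GRCm38.p6. Cox7a1 covers chr7:30183921-30184170 (+ strand), Cox8b chr7:140900447-140900696 (- strand), Cox6a1 chr5:115348959-115349208 (- strand) and Cox7a2 chr9:79759854-79760103 (- strand). Capitals mark matches, on either strand and with overlaps allowed, to CGCATGC (NRF1 core), CCGGAAG (ETS core), GGGCGG (SP1 box), AAGGTCA (ERR core), CANNTG (E-box) and the MEF2 site.
Cox7a1: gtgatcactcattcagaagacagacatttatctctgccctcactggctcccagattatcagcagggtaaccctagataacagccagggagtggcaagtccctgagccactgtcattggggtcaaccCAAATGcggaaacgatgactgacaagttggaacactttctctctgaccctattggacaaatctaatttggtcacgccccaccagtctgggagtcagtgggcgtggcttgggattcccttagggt
Cox8b: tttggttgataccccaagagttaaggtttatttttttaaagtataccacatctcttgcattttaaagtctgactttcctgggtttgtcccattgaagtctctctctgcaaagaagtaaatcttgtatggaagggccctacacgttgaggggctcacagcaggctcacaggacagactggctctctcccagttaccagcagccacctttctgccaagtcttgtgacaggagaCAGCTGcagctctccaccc
Cox6a1: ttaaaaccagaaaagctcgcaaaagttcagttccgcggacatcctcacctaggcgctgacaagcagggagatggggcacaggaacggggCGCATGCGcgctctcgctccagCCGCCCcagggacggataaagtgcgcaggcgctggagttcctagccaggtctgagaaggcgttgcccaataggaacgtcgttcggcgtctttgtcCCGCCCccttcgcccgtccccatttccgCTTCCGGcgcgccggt
Cox7a2: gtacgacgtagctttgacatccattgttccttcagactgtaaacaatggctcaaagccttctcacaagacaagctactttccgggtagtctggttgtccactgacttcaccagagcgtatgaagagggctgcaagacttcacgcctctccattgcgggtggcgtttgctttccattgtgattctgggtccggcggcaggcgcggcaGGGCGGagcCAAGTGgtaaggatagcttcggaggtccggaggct
Cox7a1 and Cox8b each held 1 E-box match and no other match. Cox6a1 held 2 overlapping NRF1 core matches, 2 SP1 box matches and 1 ETS core match, and Cox7a2 held 1 SP1 box match and 1 E-box match.

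A promoter sequence was at hand for 64 of the 78 members, with 69 sequences. The NRF1 core was found in 13% of these 69 and in 3.0% of all 32851 promoters of that length. The ETS core was found in 17.4% and 6.9%, the SP1 box in 36.2% and 32.7%, the ERR core in 5.8% and 4.1%, and the E-box in 58.0% and 66.2%. The MEF2 site was found in 0 of the 69, and in 2.9% of all promoters. NRF1, an activator of nuclear genes for mitochondrial proteins, gives its name to the first of these motifs. A match is a description of the letters and does not show that a factor bound.

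Cox6a2 was the member with the widest range among those detected everywhere. Its level was 5.61 and 5.84 in the liver metastases CR-147 and RF-342. In the lung metastases CR-147, CRE-155, FC-279, FC-28, RF-212, RF-364 and RF-379 it was 6.49, 9.53, 9.21, 9.67, 9.87, 9.10 and 9.90. In the metastatic primaries it ran from 5.77 to 12.86 (mean 9.31 ± 2.49, SD, n = 12) and in the localized primaries from 6.18 to 11.13 (mean 8.88 ± 1.84, SD, n = 6). The lung metastases thus lay close together apart from CR-147, inside the wide range of the primaries.

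In the primaries Cox6a2 was high where skeletal muscle transcripts were high. Its highest values were those of FC-279 (12.86), CRE-155 (12.24), RF-104 (12.07) and CR-147 (11.54), in which the 18 skeletal muscle markers averaged 12.45, 12.68, 12.45 and 11.82. Its lowest were those of RF-229 (5.77), CR-65 (6.18) and RF-89 (6.38), in which the markers averaged 6.43, 5.36 and 5.76. The lung metastases did not follow that order. Their muscle markers averaged 5.42 to 7.12, and 15 of the 16 muscle genes tested fell relative to the primaries, among them Acta1, skeletal muscle actin (log2 fold change -6.46, SE 0.53, adjusted p = 1.09e-04). In the lung metastases RF-364, FC-28 and RF-379, Acta1 and the muscle creatine kinase gene Ckm were not detected, while Cox6a2 stood at 9.10, 9.67 and 9.90. Other muscle genes were detected there: 8, 6 and 7 of the 18 skeletal muscle markers and 5, 4 and 6 of the 12 slow and cardiac muscle markers in RF-364, FC-28 and RF-379. Tnni2, Mylpf, Ryr1 and Eno3 of the first list were detected in 7 of 7 lung metastases and in 2 of 2 liver metastases. Tnni2, Mylpf and Eno3 were also detected in every primary. In the liver metastases CR-147 and RF-342, 10 and 6 markers of the first list and 7 and 5 of the second were detected. Cox6a2 stood there at 5.61 and 5.84. The part of muscle cells in the Cox6a2 level was not tested.

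**Figure D3:**
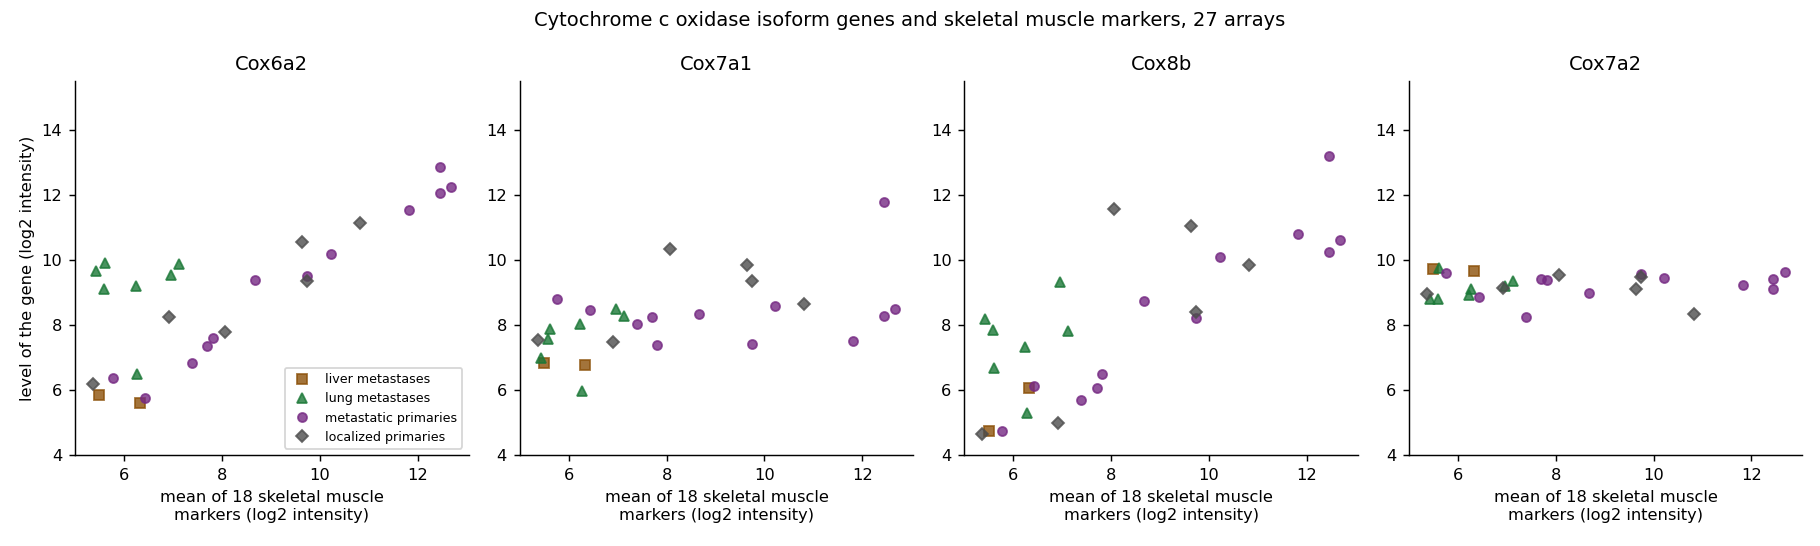
Level of 3 muscle isoform genes and of the body isoform Cox7a2 (vertical axis, log2 intensity) against the mean of 18 skeletal muscle markers (horizontal axis, log2 intensity), 1 point per array. In primaries Cox6a2 is high where the markers are high, while 6 lung metastases sit at 9.10 to 9.90 with markers at 5.42 to 7.12, and Cox7a2 stays between 8.24 and 9.77.

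Over the 7 pairs the change of Cox6a2 split by specimen. It was lower in the metastasis by 5.05 in CR-147, 3.65 in FC-279, 2.70 in CRE-155 and 0.29 in RF-364, and higher by 0.36 in RF-212, 2.29 in RF-379 and 2.83 in FC-28. Its fitted log2 difference was -0.89 (SE 0.93, adjusted p = 0.555), and with the muscle marker mean as a covariate it turned to 5.12 (adjusted p = 0.0248). With the array background as a covariate it was 3.99 (adjusted p = 0.57). Both covariates were lower in all 7 lung metastases than in their primaries, so these fits could hardly separate them from the tissue. Cox6a1, the body form, changed by -0.13 (SE 0.15, adjusted p = 0.592). The change of Cox6a2 minus that of Cox6a1 averaged -0.75 ± 3.21 (SD, n = 7), below 0 in 4 of 7 pairs (two-sided exact sign-flip permutation p = 0.531, adjusted p = 0.531 over the 2 isoform pairs tested, with 0.0156 the smallest p that 7 pairs allow).

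Cox7a1 and Cox8b peaked in the same primaries. Cox7a1 was highest in the metastatic primary FC-279 (11.77) and in the localized primaries RF-191 (10.33) and CR-93 (9.84), and ran from 5.99 to 9.36 in all other samples. Cox8b was likewise highest in FC-279 (13.21), RF-191 (11.58) and CR-93 (11.04), and ran from 4.64 to 10.79 in all other samples. The same 3 primaries had the highest levels of brown adipocyte markers among the primaries. Ucp1, the uncoupling protein of brown fat, stood at 10.33, 11.24 and 9.30 in FC-279, RF-191 and CR-93 and at 5.59 or less in all other samples, and Cidea, a lipid droplet protein, stood at 11.84, 10.86 and 9.24 in the same samples, at 8.15 in the lung metastasis CRE-155, at 8.0 in the localized primary RF-44 and at 6.13 or less in the others. Muscle markers averaged 12.45, 8.06 and 9.64 in the same 3 samples, so RF-191 combined a high Cox8b with a middling muscle level. The next highest Cox8b levels were those of the metastatic primaries CR-147 (10.79), CRE-155 (10.61), RF-104 (10.25) and CR-45 (10.08). There the muscle markers averaged 11.82, 12.68, 12.45 and 10.22, and the brown adipocyte markers 4.99, 5.02, 4.97 and 4.95. The part of either cell type in these levels was not tested.

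In the lung metastases Cox7a1 stood at 7.60 ± 0.87 and in their primaries at 8.42 ± 1.54 (SD, n = 7 each), which is a log2 difference of -0.82 (SE 0.48, adjusted p = 0.304). Pair by pair the change was -3.73 in FC-279, -1.51 in CR-147, -1.04 in FC-28, -0.77 in RF-364, -0.01 in CRE-155, 0.51 in RF-379 and 0.84 in RF-212. The change of Cox7a1 minus that of Cox7a2 averaged -0.74 ± 1.45 (SD, n = 7), below 0 in 4 of 7 pairs (two-sided exact permutation p = 0.219, adjusted p = 0.438). Cox8b changed by -5.90 in FC-279, -5.50 in CR-147, -1.26 in CRE-155, -0.91 in RF-364, -0.42 in RF-212, 0.19 in RF-379 and 2.49 in FC-28 (log2 fold change -1.62, SE 0.94, adjusted p = 0.296). No difference between a muscle form and its body form was larger than the spread between pairs, and Cox8b could not be set against Cox8a.

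Cox4i2, the lung and low-oxygen form of subunit 4, had the highest log2 fold change of complex IV in the lung pairs. Its level was 8.57, 9.20, 9.24, 9.92, 10.93, 10.52 and 9.94 in the lung metastases CR-147, CRE-155, FC-279, FC-28, RF-212, RF-364 and RF-379. In their primaries, in the same order, it was 9.16, 8.90, 8.75, 5.21, 10.22, 8.63 and 9.14. It was higher in 6 of 7 metastases and lower by 0.58 in CR-147, and the largest change, 4.71, was that of FC-28. The fitted log2 difference was 1.19 (SE 0.54, adjusted p = 0.197), and 0.60 (adjusted p = 0.232) without FC-28, whose primary did not pass detection. The lung epithelium markers rose in all 7 metastases, by 6.11 to 7.96 on average over the list, and their part in the Cox4i2 level was not tested. Cox4i1, the common form, changed by -0.15 (SE 0.13, adjusted p = 0.478).

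Among the primaries Cox4i2 was lowest in RF-56 (4.75), CR-65 (5.11), FC-28 (5.21) and CR-45 (6.12), which are the 4 primaries with the low bone markers, and ran from 7.04 to 10.38 in the other 14. It was below detection in RF-56, CR-65 and FC-28. The difference between metastatic and localized primaries was 0.87 (SE 0.82, adjusted p = 0.887), and 0.10 (adjusted p = 0.971) without these 4 samples.

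Cox6b2 had the only unadjusted p under 0.05 in the upward direction in the lung pairs. It stood at 5.78, 6.55, 7.27, 9.64, 6.33, 7.18 and 7.23 in the lung metastases CR-147, CRE-155, FC-279, FC-28, RF-212, RF-364 and RF-379. In their primaries, in the same order, it stood at 4.83, 5.11, 7.42, 6.74, 5.01, 6.77 and 6.61. It was detected in 7 of 7 lung metastases and in 4 of their 7 primaries, not in those of CR-147, CRE-155 and RF-212, so those 3 differences rest on a signal not above background. It was higher in the metastasis of 6 of 7 pairs, with FC-279 lower by 0.15 and FC-28 higher by 2.89. The fitted log2 difference was 1.07 (SE 0.32, adjusted p = 0.0736), and with median scaling it was 0.91 (adjusted p = 0.0437). The common form Cox6b1 changed by -0.16 (SE 0.13, adjusted p = 0.465).

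**Figure D4:**
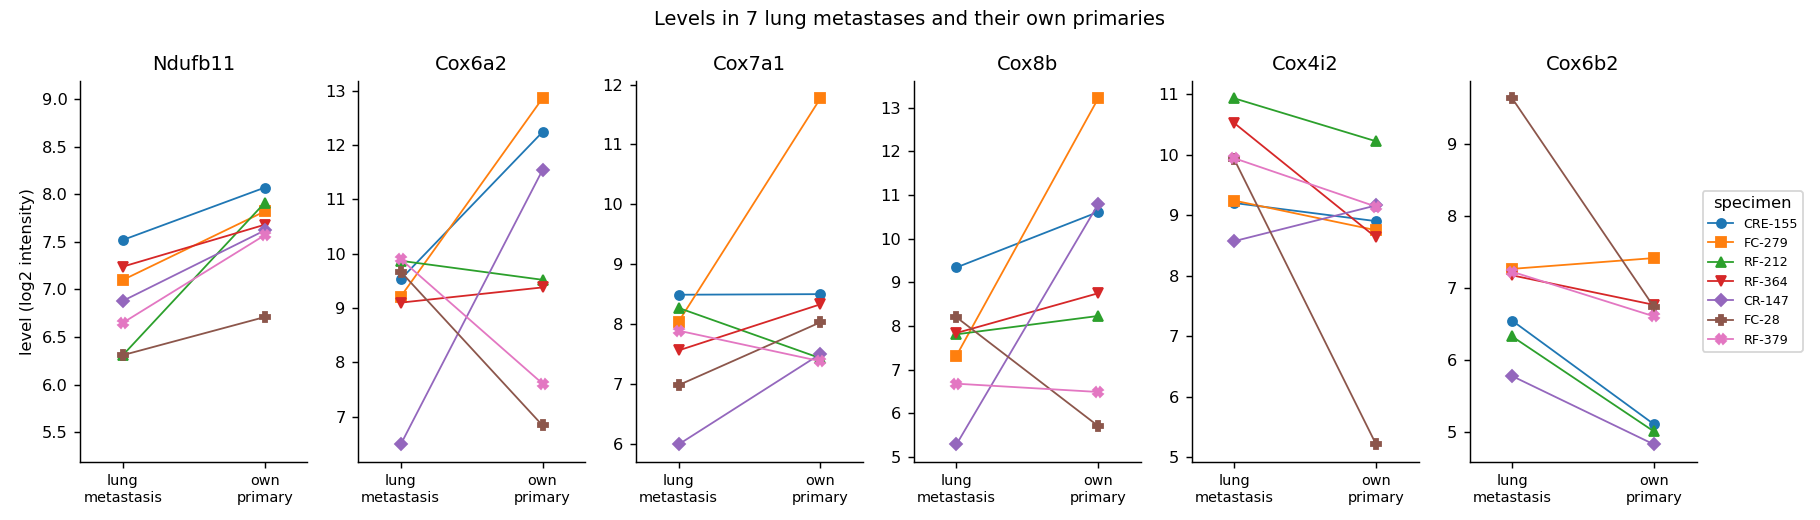
Levels of 6 members (vertical axis, log2 intensity, each panel with its own range) in the lung metastasis and in the primary of the same specimen, joined by lines. Ndufb11 is lower in 7 of 7 metastases, Cox6b2 and Cox4i2 are higher in 6 of 7, and Cox6a2, Cox7a1 and Cox8b go both ways.

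**Figure D5:**
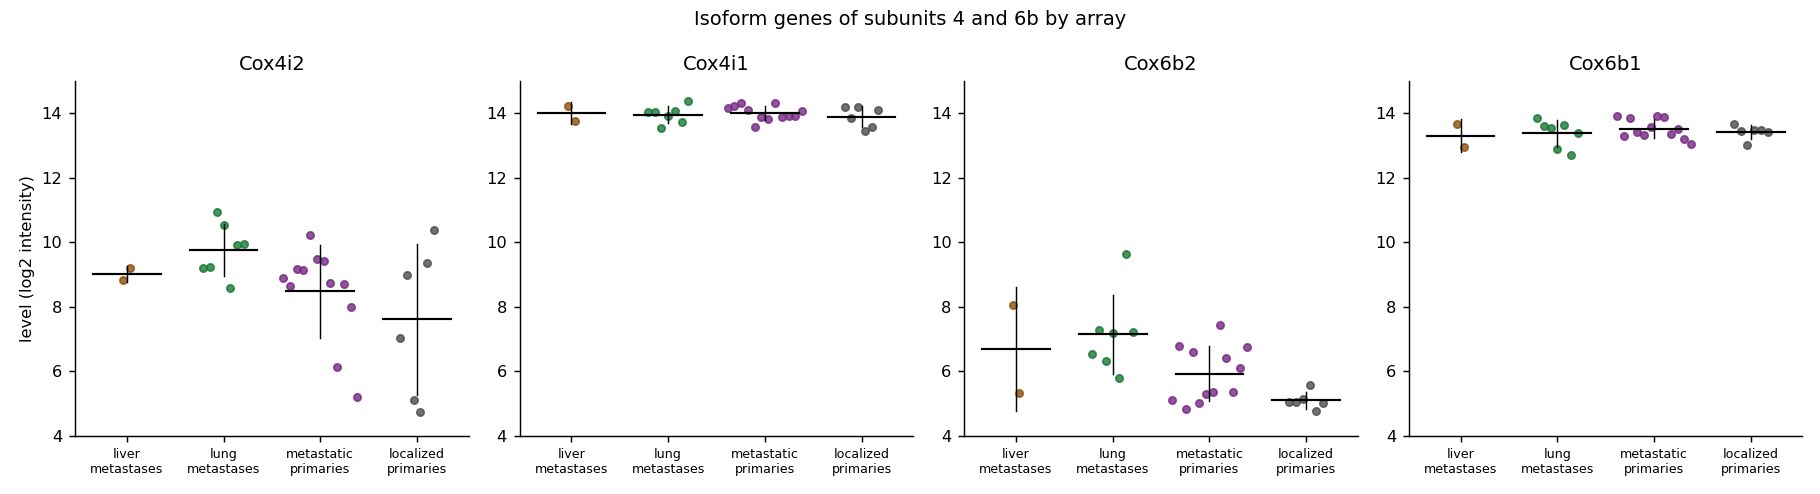
Levels of Cox4i2, Cox4i1, Cox6b2 and Cox6b1 (vertical axis, log2 intensity) in the 4 groups, 1 point per array, with group means as horizontal lines and 1 SD as vertical lines. Cox4i1 and Cox6b1 vary little, Cox4i2 has 4 low primaries at 4.75 to 6.12, and Cox6b2 reaches 9.64 in 1 lung metastasis.

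A pair of subunits outside the isoform families also varied by specimen. Atp5k stood at 10.27 in the lung metastasis of CRE-155 and 10.86 in its primary, at 10.01 in the localized primary RF-44, and from 6.80 to 9.17 in all other samples. Ndufb9, an accessory subunit of complex I, stood at 12.16, 11.34 and 9.80 in the lung metastases of CRE-155, CR-147 and RF-212, against 12.19, 11.90 and 12.17 in their primaries. In the liver metastasis of CR-147 it was 11.07, and the remaining samples ran from 8.79 to 10.66. The high level was thus shared by both tumours of CRE-155 and by the 3 of CR-147, while in RF-212 it was that of the primary alone.

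Liver metastases were compared with lung metastases and with metastatic primaries, 2 against 7 and 12 arrays, in a model in which samples of 1 specimen share a random effect, so that a fitted difference need not equal the difference of the means. Both comparisons share the liver samples. Against lung metastases, 0 of 74 members were called, beside 9% of all 13517 genes (5.76% higher and 3.24% lower). Against metastatic primaries, 0 of 74 were called, beside 9.37% (7.09% higher and 2.28% lower). At an unadjusted p under 0.05, 2 members were higher and 0 lower than in lung metastases, and 0 were higher and 2 lower than in metastatic primaries. Over all 13517 genes, 1216 were higher and 1366 lower than in lung metastases, and 1422 higher and 1399 lower than in metastatic primaries. The member medians were 0.08, against -0.10 over all genes, and -0.08, against -0.17 over all genes. Over the 22 alternatives of each, the first ran from 0.00 to 0.25 and the second from -0.24 to 0.07, above 0 with the array background as a covariate. That background was 47.0 and 47.2 in the liver metastases, below all metastatic primaries (48.8 to 76.8), so it could hardly be separated from the site.

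The lowest fitted difference in each was that of Cox6a2. Its mean was 5.73 ± 0.16 (SD, n = 2) in liver metastases and 9.11 ± 1.19 (SD, n = 7) in lung metastases, with both liver samples below all lung samples (log2 fold change -3.13, SE 1.52, adjusted p = 0.269). Against metastatic primaries it was -3.58 (SE 1.47, adjusted p = 0.153), and there the samples overlapped. Skeletal muscle markers averaged 5.49 and 6.32 in the liver metastases, against 5.42 to 7.12 in the lung metastases and 5.76 to 12.68 (median 9.20) in the metastatic primaries, and their part was not tested. Cox7a1 was 6.77 and 6.83 in liver metastases, below all 12 metastatic primaries (log2 fold change -1.27, adjusted p = 0.322), and Cox7a2, its body form, was 9.67 and 9.72, above all 12 (log2 fold change 0.46, adjusted p = 0.343). The share of all genes whose 2 liver samples stood apart in this way was not counted, so these separations carry little weight. Ndufv1, which binds NADH in complex I, stood at 12.96 ± 0.23 in liver metastases and 12.44 ± 0.25 in lung metastases (log2 fold change 0.54, SE 0.23, adjusted p = 0.178). Cox6b2 was 8.06 in the CR-147 liver metastasis and 5.33 in that of RF-342. Against lung metastases 59 of 74 members had a 95% interval within 1 log2 unit of 0, beside 41% of all genes, and against metastatic primaries 64 of 74 had one, beside 39.7%.

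Other genes of mitochondrial energy metabolism were read from lists of related pathways. In lung metastases, where 2.59% of all genes were called lower and 5.69% higher, these lists held about 1 call each: 1 of 28 assembly factors (Ndufaf2, -0.75, adjusted p = 0.0260), 1 of 15 genes of the citrate cycle and pyruvate oxidation (Idh3a, a subunit of isocitrate dehydrogenase, -0.77, adjusted p = 0.0498), 1 of 14 genes of mitochondrial biogenesis (Ssbp1, which binds single-stranded mitochondrial DNA, -0.90, adjusted p = 0.0312) and 1 of 28 mitochondrial ribosomal proteins (Mrpl16, -0.76, adjusted p = 0.0179). The list medians were -0.32, -0.28, -0.18 and -0.37, against -0.06 over all genes. Of 17 fatty acid oxidation genes 0 were called, and of 14 glycolysis genes 1 fell (Pfkm, the muscle phosphofructokinase, -1.35, adjusted p = 0.0422). Ckmt1, a mitochondrial creatine kinase, was the 1 of 11 carrier and energy transfer genes that rose (2.66, adjusted p = 0.00118), and Slc25a13, an aspartate and glutamate carrier, the 1 that fell (-0.65, adjusted p = 0.0453). In the primaries, 0 genes of these lists were called.

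In liver metastases a share of the fatty acid oxidation genes rose, while 0 respiratory chain subunits passed the test. Against lung metastases 8 of 18 fatty acid oxidation genes were higher and 0 lower, beside 5.76% of all genes higher, with Acadvl, the very-long-chain acyl-CoA dehydrogenase, at 1.5 (SE 0.30, adjusted p = 0.00128) and Acaa2, a thiolase, at 2.60 (SE 0.52, adjusted p = 0.00156). Against metastatic primaries 6 of 18 were higher and 0 lower, beside 7.09% of all genes higher. Pcx, pyruvate carboxylase, was higher by 3.38 and 3.56 in these comparisons (adjusted p = 3.00e-04 and 8.84e-05), and Ppargc1a, a coactivator of mitochondrial biogenesis genes, by 1.49 and 1.72 (adjusted p = 0.0140 and 0.00292). Each was the only call of its list in both comparisons, 1 of 16 citrate cycle and pyruvate genes and 1 of 14 biogenesis genes. Ppargc1a was detected in 2 of 2 liver metastases, 5 of 7 lung metastases and 5 of 12 metastatic primaries, and Pcx in 2, 6 and 9 of them, so the differences rest in part on signals not above background. Hepatocyte markers moved with these genes: 17 of 18 were called higher against lung metastases and 18 of 18 against metastatic primaries, and their part was not tested. The difference between the fatty acid oxidation list and the subunits was itself not tested. In the other lists, 0 of 28 assembly factors, 1 of 28 mitochondrial ribosomal proteins (higher) and 0 of 14 glycolysis genes were called against lung metastases. Of 12 carrier and energy transfer genes 1 was higher and 1 lower there. Against metastatic primaries 2 of 14 glycolysis genes were lower (Hk1 and Aldoa), and 0 assembly, ribosomal or carrier genes were called.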

How the data were processed

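Per the file headers, the deposited bead files list for each probe an average intensity, linear and not normalized. They also list a detection score, deposited by the authors, from 0 to 1. Here 1 minus the score served as the detection p. The log2 values of the authors' deposited matrix, with a median of 5.9 on every array, were an alternative. BeadStudio is named in the submitters' processing notes. Bead probes were tied to the annotated probes by their order of brightness over 27 arrays, which matched all 45281 one to one. Of these, 34885 had 1 gene symbol, 18 several and 10378 none.

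Intensities were background corrected with neqc of limma 3.58.1 (offset 16) in R 4.3.3, turned into log2 values and quantile normalized. The probe with the highest mean over 27 arrays stood for a gene; 30 members had several probes. Genes were tested where detected on at least 6 arrays (primaries), 7 (lung pairs) or 2 (liver), with lmFit and eBayes, two-sided, with Benjamini-Hochberg adjustment over all genes tested. The lung pairs used the specimen as a block, the liver comparisons duplicateCorrelation (statmod 1.5.0) with a consensus correlation of 0.355. The design text ties each metastasis to its primary. Deviations from the group means correlated at 0.31 to 0.52 within the 7 pairs, and 5 of 7 lung metastases correlated best with their own primary among the 12. The exceptions were RF-212 (0.32) and FC-28 (0.31), which gave several of the largest pair changes above. No arrays were duplicates (highest correlation 0.978). The number of arrays limits the precision.

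Named were the isoform and core genes of the set, members past the threshold and, per comparison and complex, the highest and lowest fold change. Other genes were named as the smallest p of a list or as defining markers. Members, lists and tests were chosen with earlier results of these data known.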

Additional observations from a re-analysis of the deposited data

Results flagged for a closer look

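Values of single samples were checked in 78 groups of values (complex means and named members in the localized primaries, the lung metastases and the 7 pair changes) for a highest or lowest sample far from the others, by Dixon's test at the 95% level. Chance marks about 1 in 20 such groups, and 7 values were marked. In the lung metastases, Cox6a2 was 6.49 in CR-147, with the other 6 at 9.10 to 9.90. Cox6b2 was 9.64 in FC-28, with the others at 5.78 to 7.27. Cox7a2l, a factor of supercomplex assembly, was 12.60 in CRE-155, with the others at 11.55 to 11.84, and its level in the primary of CRE-155 was 12.34. Ndufv1 was 12.95 in RF-379, with the others at 12.19 to 12.49, and 13.25 in its primary. In the localized primaries, Cox6b1 was 13.01 in CR-65, with the others at 13.43 to 13.68. Over the pairs, Atp5b, the catalytic beta subunit of ATP synthase, changed by 0.07 in RF-212, with the others at -0.48 to -0.25, and Atp5g3, a form of the c subunit, by -0.66 in FC-28, with the others at -0.20 to 0.00.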

How the results depend on the processing

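In the primaries 0 members were called under each of the 31 alternatives, and against lung metastases 0 in liver under each of 22. Against metastatic primaries 20 of 22 gave 0. Leaving out 1 specimen at a time gave 0 to 1 calls there: without RF-104 it was Ndufa7 (-0.57, adjusted p = 0.0488) and without RF-342 Cox6b2 (2.76, adjusted p = 0.0479). In the lung pairs, with 1 call in the reported analysis, median scaling gave 34, no background correction 3, the authors' matrix 4, no filter on detection 3, arrayWeights 5, and background as a covariate 0. Apart from median scaling, the share of all genes called under these alternatives is not given here. These counts therefore do not show that members were called more often than other genes. Without the replicate block 0 members were called. Without the 3 pairs with hepatocyte transcripts there were 0 calls, and leaving out 1 pair at a time gave 0 to 2, with 2 (Ndufb10 and Ndufb11) without FC-28. The causes were not tested. In the lung pairs 11 of 26 single-gene differences changed sign under at least 1 alternative. Among them, Ndufb11 did so with background as a covariate (0.08, adjusted p = 0.957) and Cox6a2 with background (3.99, adjusted p = 0.57) or the muscle marker mean (5.12, adjusted p = 0.0248) as a covariate. Cox8b did so with the same covariates (1.57 and 3.92) and Cox7a1 with the muscle marker mean (1.18). Both covariates were lower in all 7 lung metastases than in their primaries, so these fits could hardly separate them from the tissue. A change of sign was seen in 13 of 26 such differences in the primaries, 9 of 25 in liver against lung metastases and 11 of 26 in liver metastases against metastatic primaries. Ndufb11 also lost its call with the mean of all its probes (-0.31, adjusted p = 0.16), with the muscle covariate (-0.94, adjusted p = 0.369) and without the block (-0.77, adjusted p = 0.0963). The changes of Cox6a2 minus Cox6a1 and of Cox7a1 minus Cox7a2 were recomputed with median scaling, without background correction, on the authors' matrix and without each pair in turn, and none of these brought one past the threshold. Tested one by one, 106 probes of members gave 1 call lower and 0 higher in the lung pairs. The fits within low- and high-background primaries and each probe alone were chosen after seeing the data. The fit without FC-279 was 1 of the fits that left out each specimen in turn. With 2 liver metastases and 7 pairs, small changes could not be measured, and signal near background limits Cox6b2, Uqcrfs1 and the undetected genes.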
